A study of Homo sapiens with 192 samples.

Results

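Long noncoding RNAs (lncRNAs) are transcribed from their own promoters, and here the promoters that belong to lncRNA genes alone were examined for open chromatin in single HAP1 cells. The members were the peak features on chromosomes 1 to 22 that contained an annotated transcription start of a lncRNA gene and had no start of a protein-coding gene within 1000 bp of the feature. This gave 1319 lncRNA-only features of 76895 on these chromosomes and of 80971 in all. They were compared with the 11247 features that contained a protein-coding start and with the 64034 that contained neither kind of start. Of the features with a protein-coding start, 1844 also held a lncRNA start. Another 295 held a lncRNA start with a protein-coding start close by but outside the feature, and belonged to none of the 3 classes. The data are plate-based single-nucleus ATAC-seq (snATAC-seq) of HAP1 cells, 96 on each of 2 plates. HAP1 is an adherent, near-haploid human cell line derived from a chronic myeloid leukemia. CASB-labeled cells, which carry barcoding DNA on their nuclei, were pooled with unlabeled cells before tagmentation and sorting. The labels name no genotype, treatment or time. The Methods describe 1 pool of nuclei that was tagmented and then sorted into 96-well plates. The 2 plates are therefore parts of 1 mixed sample, and agreement between them is not replication. Which cells carried the CASB label is not known here. With no separate cultures named, cells were not replicates and no test was made.

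In HAP1 cells, none of the 6 blood genes PTPRC, SPI1, TAL1, CD34, CD33 and HBG1 had a feature at a start. These genes were chosen because HAP1 is known to have lost them or kept them low. The share of all protein-coding genes without a feature was not computed, so this count is not a result about blood genes. Of the ubiquitous genes, GAPDH, RPLP0 and EEF2 each had 1 feature at a start, and ACTB had 3. The most widely seen feature was found in 11 cells for ACTB, 14 for GAPDH, 4 for RPLP0 and 3 for EEF2. Those of RPLP0 and EEF2 were seen on plate 2 only.

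Tn5 transposase inserts adapters where DNA is free of nucleosomes, and promoters in use are among the most accessible sites of a genome. Many lncRNA promoters resemble those of protein-coding genes, with a nucleosome-depleted stretch just before the start, but fewer of them lie in CpG islands, the GC-rich stretches in which CpG dinucleotides are preserved. lncRNA transcription is also known to be more restricted to particular cell types than that of protein-coding genes.

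The sequences of 4 promoters show the range of base composition among the lncRNA-only features seen in most cells. Each covers 300 bases of hg38 from 200 bases before to 99 bases after the start that lies nearest to the feature's center, written 5' to 3' on the strand of the gene, with exact matches to any of 10 promoter motifs in capitals. The DANCR window is chr4:52712225-52712524 (plus strand), LINC02453 is chr12:98503760-98504059 (minus strand), RMST is chr12:97464618-97464917 (plus strand) and SOX2-OT is chr3:181056398-181056697 (plus strand).
DANCR: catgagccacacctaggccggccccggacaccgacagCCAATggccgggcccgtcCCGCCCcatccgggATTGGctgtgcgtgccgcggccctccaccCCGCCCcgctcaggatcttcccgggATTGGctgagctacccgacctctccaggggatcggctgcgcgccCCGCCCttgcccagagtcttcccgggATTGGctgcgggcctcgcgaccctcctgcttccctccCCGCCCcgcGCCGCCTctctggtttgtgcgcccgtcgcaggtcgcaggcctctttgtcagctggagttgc
LINC02453: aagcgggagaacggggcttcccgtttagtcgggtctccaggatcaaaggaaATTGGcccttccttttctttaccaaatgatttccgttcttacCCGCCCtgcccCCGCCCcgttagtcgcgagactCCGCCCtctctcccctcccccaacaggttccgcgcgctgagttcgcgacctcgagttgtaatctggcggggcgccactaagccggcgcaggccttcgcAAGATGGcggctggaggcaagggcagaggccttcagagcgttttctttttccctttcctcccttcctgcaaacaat
RMST: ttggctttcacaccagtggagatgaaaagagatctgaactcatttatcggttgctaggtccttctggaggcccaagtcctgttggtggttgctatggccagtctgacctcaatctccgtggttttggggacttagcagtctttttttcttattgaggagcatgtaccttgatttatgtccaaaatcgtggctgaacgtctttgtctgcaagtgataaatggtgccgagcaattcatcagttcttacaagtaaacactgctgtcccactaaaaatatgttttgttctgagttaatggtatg
SOX2-OT: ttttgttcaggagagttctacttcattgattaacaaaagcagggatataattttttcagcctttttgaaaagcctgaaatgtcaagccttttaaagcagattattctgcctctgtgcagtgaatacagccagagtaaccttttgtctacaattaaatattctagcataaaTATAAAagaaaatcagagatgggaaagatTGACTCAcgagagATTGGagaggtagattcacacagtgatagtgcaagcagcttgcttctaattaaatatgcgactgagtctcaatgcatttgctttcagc
The DANCR window was 72.0% GC with 30 CpG dinucleotides, and the LINC02453 window was 59.3% GC with 24. The RMST window was 43% GC with 5 CpG dinucleotides, and the SOX2-OT window was 36% GC with 2. DANCR had 4 matches to CCAAT, the box bound by NFY, and 4 to GGGCGG, the box bound by SP and KLF factors, counting both strands, and 1 to AGGNGGC, a core of the CTCF motif. LINC02453 had 1 match to CCAAT, 3 to GGGCGG and 1 to AAGATGG, the YY1 motif, which began 24 bases after the start. SOX2-OT had a TATAAA match that began 30 bases before the start and an AP-1 match (TGAGTCA) that overlapped the start, followed by 1 match to CCAAT. No match to the 10 motifs was found in the RMST window.

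The values below are numbers of passing cells, that is of cells with more than 300 peaks, in which a feature held at least 1 read pair. There were 83 passing cells on plate 1 and 79 on plate 2. A passing cell had between 345 and 15351 read pairs in features. Within 1 cell, 37 lncRNA-only features were seen as a median, and between 3 and 226 over all passing cells. Of the entries above 0, 84.2% were a single read pair, so the number of cells carried nearly all of the information. Cells 37 to 48, 73 to 84 and 85 to 96 of each plate shared features with one another. Of the 204 lncRNA-only features seen in exactly 2 of all cells, 67.2% linked a well of 1 of these groups of 12 with the well at the same place in the next group on its plate. For features with a protein-coding start, 58.1% of 680 did so, and with neither start 70.9% of 22859. Cells of these numbers are therefore not independent of each other, and the main values are also given without them, which left 91 passing cells. All intervals are exact (Clopper-Pearson) 95% intervals. They cover counting error only and treat what is counted as independent, although some features overlap and some wells share features.

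The lncRNA-only features were seen in fewer cells than features with a protein-coding start and in more cells than features with neither start. Their median was 5 passing cells (quartiles 3 and 8, range 1 to 43), against 7 (quartiles 4 and 11) with a protein-coding start and 3 (quartiles 2 and 5) with neither. Of the 1319 lncRNA-only features, 248 were seen in at least 10 passing cells (18.8%, interval 16.7 to 21.02%). Over all features of chromosomes 1 to 22 the share was 11.4%. It was 33.2% (interval 32.4 to 34.1%) with a protein-coding start and 7.34% (interval 7.14 to 7.54%) with neither. Among features with a protein-coding start, those that also held a lncRNA start reached 44.3% (interval 41.97 to 46.6%), and those that did not reached 31.1% (interval 30.1 to 32.01%). The order of the 3 classes was the same on each plate. With a limit of 5 cells on 1 plate, 21.8% of the lncRNA-only features passed on plate 1 and 23.5% on plate 2. With a protein-coding start the shares were 37.0% and 37.7%, and with neither start 9.82% and 10.0%. Without the wells that shared features, the share at the limit of 10 cells was 3.03% for lncRNA-only features and 9.17% with a protein-coding start. At a limit of 6 cells, scaled to the 91 cells left and chosen after seeing the data, it was 15.1% and 28.4%. No test of these differences was possible, since both plates hold cells of 1 mixed sample.

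**Figure D1:**
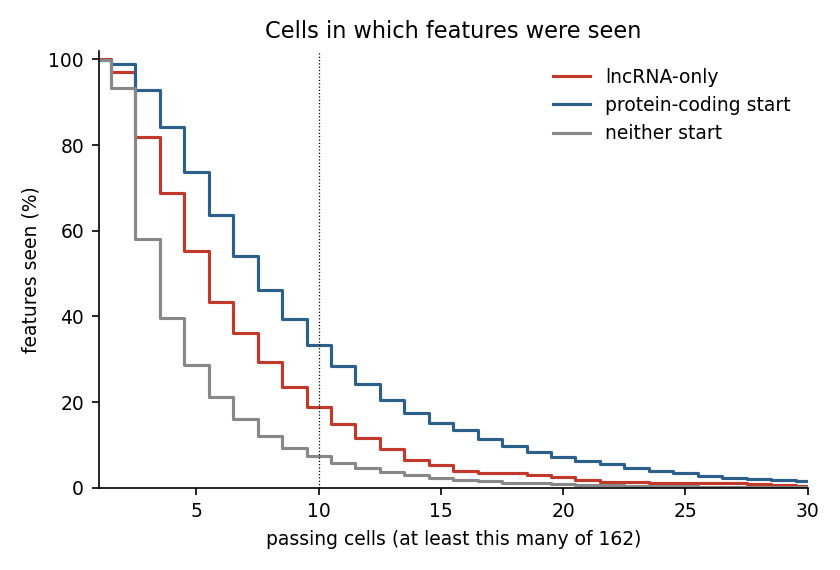
Percentage of features (y axis) seen in at least the number of passing cells on the x axis, for lncRNA-only features (red), features with a protein-coding start (blue) and features with neither start (gray). At the limit of 10 cells (dotted line) the curves stand at 18.8%, 33.2% and 7.34%.

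Together the lncRNA-only features took 10041 of 478379 read pairs in passing cells (2.10%, interval 2.06 to 2.14%), and features with a protein-coding start took 25.6%. The lncRNA-only share was 2.08% on plate 1 and 2.12% on plate 2, a difference within their intervals (2.03 to 2.14% and 2.06 to 2.17%). In single cells it had a median of 2.04% on plate 1 (range 0.535 to 3.60%) and of 2.05% on plate 2 (range 1.02 to 3.32%). Where a lncRNA-only feature was seen in a cell it held 1.20 read pairs on average, against 1.23 with a protein-coding start. All 1319 lncRNA-only features were seen in at least 1 passing cell. On both plates 74.8% were seen, and the rest were seen on 1 plate only. With a protein-coding start 88.1% were seen on both plates, and with neither start 50.3%. Over all features of the autosomes the share was 56.4%, so the lncRNA-only features were above it. A feature seen in more cells is likelier to be seen on both plates, so this is not a separate result.

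A smaller part of the lncRNA-only features was CpG-rich, meaning a GC content of at least 50% and an observed-to-expected CpG ratio of at least 0.6 over the length of the feature. This held for 441 of 1319 (33.4%, interval 30.9 to 36.1%), against 75.9% with a protein-coding start and 2.81% with neither start. Median GC content was 50.6% for lncRNA-only features, 61.2% with a protein-coding start and 40.0% with neither, and the median CpG ratio was 0.417, 0.760 and 0.192. CpG-rich members were more widely seen. Of the 441, 30.6% were seen in at least 10 cells (interval 26.3 to 35.1%), and of the other 878, 12.9% were (interval 10.7 to 15.3%). Over all features of the autosomes these shares were 35.02% and 7.47%, and with neither start 21.5% and 6.93%. The rise with CpG richness was thus not particular to lncRNA-only features. Features with a protein-coding start were above the lncRNA-only features within both kinds, at 38.2% (interval 37.2 to 39.3%) when CpG-rich and 17.5% (interval 16.1 to 18.97%) otherwise. The gap between the classes was thus 14.4 percentage points over all features and 7.60 points among CpG-rich ones. On each plate alone, at 5 cells, 35.6% and 35.1% of the CpG-rich lncRNA-only features passed, against 42.1% and 42.8% with a protein-coding start. Without the wells that shared features, the CpG-rich shares at the limit of 10 cells were 4.99% and 10.9%. At the limit of 6 cells they were 24.7% and 32.8%. Among the 248 lncRNA-only features seen in at least 10 cells, 54.4% were CpG-rich (interval 48.01 to 60.7%), and the rest fell short of 1 or both of these limits, some of them narrowly.

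**Figure D2:**
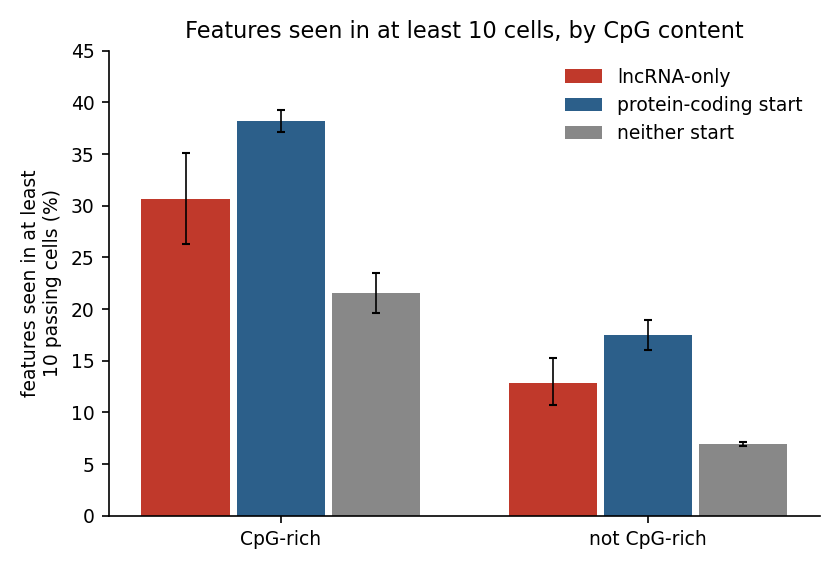
Percentage of features seen in at least 10 passing cells (y axis) among CpG-rich features and all others, for lncRNA-only features (red), features with a protein-coding start (blue) and features with neither start (gray). Bars start at 0 and lines are exact 95% intervals. The lncRNA-only bars, at 30.6% and 12.9%, lie between the other classes in both groups.

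Grouped by GC content, the order of the classes was kept in each range. Below 40% GC, 9.52% of 231 lncRNA-only features were seen in at least 10 cells, against 12.6% with a protein-coding start and 7.87% with neither, and the interval of the lncRNA-only share (6.07 to 14.1%) covered both other values. Between 50 and 60% GC the shares were 23.5% of 374 (interval 19.3 to 28.2%), 38.4% and 6.81%. At 60% GC and above they were 28.7% of 307 (interval 23.7 to 34.1%), 34.4% and 13.04%.

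The centers of the lncRNA-only features, which are the summits of the authors' peaks, lay farther from the annotated starts than did those of features with a protein-coding start. Since a member had to contain a start, its center could lie at most 500 bp from one, so closeness was in part fixed by the choice of features, in both classes. The distance is to the nearest of all starts in a feature, so more annotated starts can only shorten it. Neither the classes nor the groups of members below were matched for the number of starts, and its part in these distances was not tested. The median distance between the center and the nearest lncRNA start was 0.141 kb (quartiles 0.0505 and 0.293 kb), against 0.098 kb (quartiles 0.035 and 0.207 kb) for protein-coding starts. Within 250 bp lay 69.2% (interval 66.6 to 71.7%) and 80.9% (interval 80.2 to 81.6%), where 50.05% of the positions of a feature are within 250 bp of its center. The center was upstream of the lncRNA start in 54.1% of the features, and the median position was 12 bp upstream. For protein-coding starts these values were 58.7% and 22 bp. Members seen in at least 10 cells had a median distance of 0.097 kb, and the others of 0.152 kb. CpG-rich members had one of 0.099 kb and the rest of 0.16 kb. For protein-coding starts the median was 0.087 kb in CpG-rich features and 0.149 kb in the rest. The classes were thus closer to each other within each kind than over all features.

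**Figure D3:**
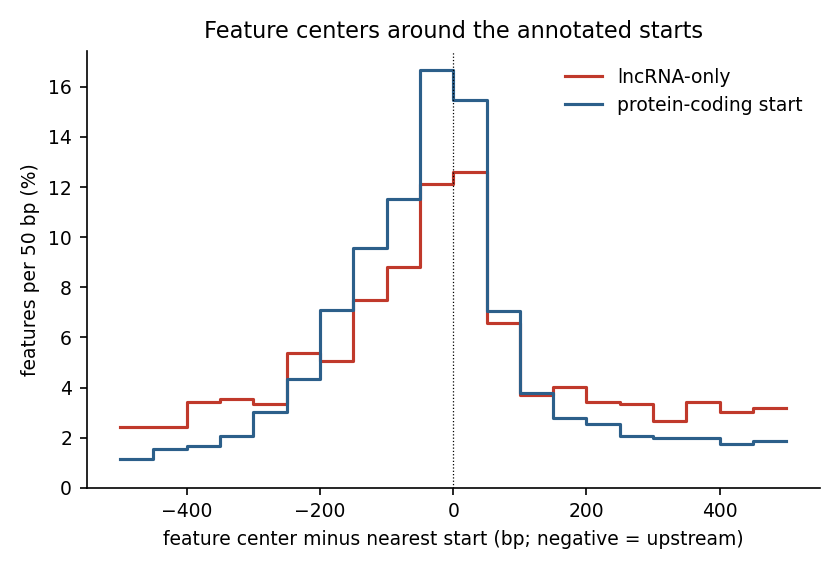
Percentage of features per 50 bp (y axis) by the position of the feature's center relative to the nearest start in bp (x axis, negative values upstream), for lncRNA-only features (red) and features with a protein-coding start (blue). Both curves have their highest values next to the start, and the lncRNA-only curve is lower there and higher towards the edges.

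Most lncRNA-only features were in the space between protein-coding genes. The nearest lncRNA start was between such genes in 1074 features (81.4%), of which 20.4% were seen in at least 10 cells (interval 18.02 to 22.9%). It was within a protein-coding gene in 245, of which 11.8% were (interval 8.07 to 16.6%). The commonest place within a gene was an intron on the opposite strand, which held 11.9% of the members. These 245 features were also less often CpG-rich, at 17.96% against 37.0% between genes. Of all members, 150 lay 1 to 5 kb from a protein-coding start, 576 lay 5 to 50 kb away and 593 lay over 50 kb away. The shares seen in at least 10 cells were 14.7%, 21.01% and 17.7%, with intervals that overlapped (9.43 to 21.4%, 17.7 to 24.6% and 14.7 to 21.02%).

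Features with more annotated lncRNA starts were more widely seen. With 1 start (724 features) the share seen in at least 10 cells was 12.3% (interval 9.99 to 14.9%), with 2 to 4 starts (332 features) it was 21.7% (interval 17.4 to 26.5%), and with 5 or more (263 features) it was 33.1% (interval 27.4 to 39.1%). The last value is close to that of features with a protein-coding start. In CpG-rich members the share was 23.03% with 1 start (interval 16.8 to 30.2%), 34.1% with 2 to 4 (interval 26.1 to 42.7%) and 36.2% with 5 or more (interval 28.3 to 44.7%), and these intervals overlapped. In the others it was 9.12% (interval 6.87 to 11.8%), 13.2% (interval 8.81 to 18.7%) and 29.5% (interval 21.6 to 38.4%), where the last lay above both other intervals. The 110 features that held starts of 2 or more lncRNA genes had a share of 38.2% (interval 29.1 to 47.9%), and 71.8% of them were CpG-rich. Starts of other gene types were present in 8.42% of the members, in 77 of them with a pseudogene, and of these 77 features 88.3% were CpG-rich. By chromosome, lncRNA-only features made up between 1.23% of features (chromosome 11) and 2.92% (chromosome 17).

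Promoter motifs were counted as exact matches on either strand anywhere in the feature. GGGCGG was present in 49.9% of the lncRNA-only features, in 83.8% with a protein-coding start and in 25.7% of all features of chromosomes 1 to 22. TATAAA, the core of the TATA box, had the opposite order, with 39.1%, 22.9% and 57.9%. CCGGAAG, the motif of ETS factors, was found in 12.7%, 23.1% and 5.93%. GCATGCGC, the NRF1 motif, was found in 3.87%, 6.51% and 2.10%. CCAAT was present in 69.7%, 64.4% and 75.7%, AGGNGGC, a core of the CTCF motif, in 61.8%, 79.3% and 45.6%, and CACGTG, the E-box, in 15.8%, 19.4% and 10.9%. AAGATGG was found in 15.8%, 15.9% and 17.6%, and TGACGTCA, the CREB motif, in 2.88%, 3.797% and 0.934%. TGAGTCA was present in 15.7% of the lncRNA-only features, 8.74% with a protein-coding start and 15.5% of all. Among CpG-rich features the interval of the lncRNA-only share covered the protein-coding share for 8 of the 10 motifs. GGGCGG was found there in 95.5% of both classes, CCGGAAG in 25.2% of lncRNA-only features (interval 21.2 to 29.5%) and 26.8% with a protein-coding start, TATAAA in 17.5% (interval 14.03 to 21.3%) and 16.3%, and TGAGTCA in 7.94% (interval 5.59 to 10.9%) and 7.13%. The exceptions were AGGNGGC, with 79.6% (interval 75.5 to 83.3%) against 85.7% (interval 84.9 to 86.4%), and TGACGTCA, with 6.80% (interval 4.64 to 9.57%) against 4.31% (interval 3.89 to 4.76%). Among features that were not CpG-rich it covered the protein-coding share for 3 of the 10, namely the NFY, YY1 and E-box motifs. GGGCGG was found there in 26.99% of lncRNA-only features (interval 24.1 to 30.1%) and 46.8% with a protein-coding start, CCGGAAG in 6.49% (interval 4.95 to 8.33%) and 11.6%, TGACGTCA in 0.911% (interval 0.394 to 1.79%) and 2.18%, and TGAGTCA in 19.6% (interval 17.01 to 22.4%) and 13.8%. A match is a stretch of letters and not a measured binding site.

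The lncRNA-only features seen in most cells included 8 that were CpG-rich among 15, and 14 of the 15 lay between protein-coding genes. The first was at chr1:247936612-247937612 and held the start of an unnamed lncRNA, ENSG00000289367, together with a processed pseudogene start. It was seen in 43 passing cells (26.5%, interval 19.9 to 34.04%), 20 of 83 on plate 1 and 23 of 79 on plate 2, and in 23 of the 91 cells left without the wells that shared features. Among features with a protein-coding start, 16 were seen in more cells, up to 59. LINC01814, at chr2:8583371-8584371 and 94474 bp from the nearest protein-coding start, that of ID2, was seen in 37 cells, 17 on plate 1 and 20 on plate 2. ENSG00000289878 at chr13:94549109-94550109 was also seen in 37, with 19 and 18. These 3 were thus open in about equal parts of both plates.

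RMST, a lncRNA known from neuronal differentiation, where it acts with the transcription factor SOX2, had its feature at chr12:97464086-97465086, 551510 bp from the nearest protein-coding start. It was seen in 33 cells (20.4%, interval 14.5 to 27.4%), 19 on plate 1 and 14 on plate 2, and in 21 of the 91 cells without the shared wells. Its GC content was 39.8%, among the lowest of the 15. SOX2-OT, the transcript that spans the SOX2 gene, had its most widely seen feature at chr3:181056018-181057018. It was seen in 28 cells (17.3%, interval 11.8 to 24.002%), 12 on plate 1 and 16 on plate 2, with a GC content of 37.2%. DANCR, a lncRNA that hosts a snoRNA and is known for restraining differentiation, shared its feature at chr4:52711918-52712918 with a start of LINC01618 and one of a microRNA gene. It was seen in 28 cells, 17 on plate 1 and 11 on plate 2, with a GC content of 66.5%. LINC02453, at chr12:98503079-98504079, was seen in 29 cells, 14 and 15. Without the shared wells SOX2-OT was left with 13 of the 91 cells, DANCR with 12 and LINC02453 with 11. Over all 15 features these counts ranged from 8 to 23.

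The other members among the 15 were seen in 26 to 33 cells. They were ENSG00000288075 (33 cells), ENSG00000290683 (32 cells), LINC02018 (32 cells), ENSG00000261729 (28 cells), LINC01115 (28 cells), a feature shared by ENSG00000254028 and ENSG00000289405 (27 cells), ENSG00000291051 (27 cells) and ANKRD33B-AS1 (26 cells). The values of ENSG00000288075 and LINC02018 are uncertain, because the sequence of each feature has near-identical copies elsewhere in hg38. These are 7 copies for the first (identity up to 96.5% over 902 bp) and 4 for the second (up to 96.1% over 887 bp), and reads can be placed on the wrong copy. Copies of at least 95% identity over at least 500 bp were found for 100 of the 1319 lncRNA-only features (7.58%) and for 17 of the 248 seen in at least 10 cells. Without the 100, the share seen in at least 10 cells was 18.95%.

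**Figure D4:**
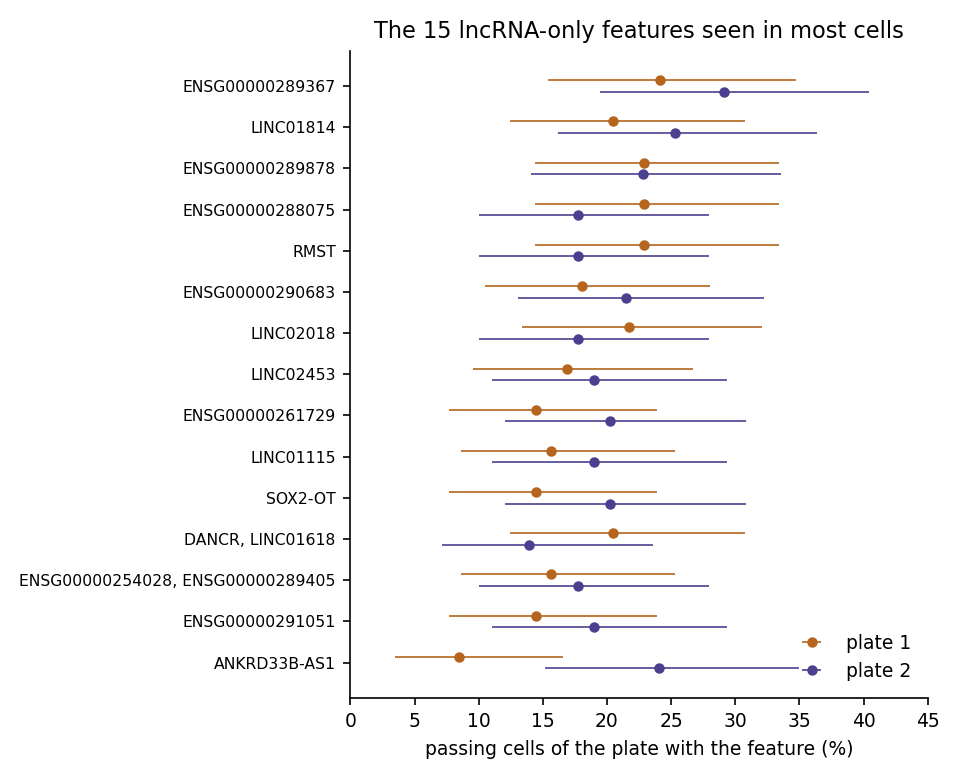
Percentage of the passing cells of plate 1 (brown, 83 cells) and plate 2 (violet, 79 cells) in which each of the 15 most widely seen lncRNA-only features was found, with exact 95% intervals as lines. The intervals of the plates overlap for each feature, and ANKRD33B-AS1, at 8.43% and 24.1%, has the widest gap.

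The 1319 features held starts of 1288 lncRNA genes by symbol, which is 7.01% of the 18374 lncRNA symbols annotated on these chromosomes, and some genes had 2 or more such features. Grouped by the kind of gene name, hosts of small RNAs were the most often CpG-rich. snoRNA host genes had 13 lncRNA-only features, 11 of them CpG-rich, from 12 of 32 genes, and another 9 genes started only in features with or near a protein-coding start. Of the 13 features, 4 were seen in at least 10 cells (30.8%, interval 9.09 to 61.4%), led by DANCR with 28 cells, SNHG8 with 13 (8 on plate 1 and 5 on plate 2) and SNHG15 with 13 (7 and 6). microRNA host genes had 29 features from 19 of 79 genes, and 10 of the 29 were seen in at least 10 cells (34.5%, interval 17.9 to 54.3%). MIR181A1HG, which hosts miR-181 microRNAs, was seen in 21 cells, 10 on plate 1 and 11 on plate 2, but in 7 of the 91 cells without the shared wells. MIR99AHG, which hosts miR-99a, was seen in 15 cells (7 and 8), and in 10 of the 91. MIR31HG, which hosts miR-31, was seen in 12 cells (4 and 8), and in 3 of the 91. The MIR181A1HG and MIR99AHG features were not CpG-rich, with GC contents of 39.3% and 40.8%.

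Genes named as divergent transcripts, which start head to head with a neighbor, were mostly excluded by the distance to protein-coding starts. Of 579 such genes, 10 had a lncRNA-only feature and 367 started only in other features. Of their 11 lncRNA-only features, 1 was CpG-rich, and 4 were seen in at least 10 cells, led by ZNF496-DT and EDIL3-DT with 12 cells each and PSMD7-DT with 11. Without the shared wells EDIL3-DT was left with 3 of the 91 cells and ZNF496-DT with 6. Antisense genes had features at the starts of 110 of 1773 genes, with 19.5% of the features seen in at least 10 cells (interval 12.9 to 27.6%), led by ANKRD33B-AS1 with 26 cells, ENTPD3-AS1 with 24 and KCNJ5-AS1 with 18. The ENTPD3-AS1 feature was seen in 12 cells on each plate and in 17 of the 91 without the shared wells. Genes with a LINC number had 321 features from 285 of 2211 genes, 21.2% of them seen in at least 10 cells (interval 16.8 to 26.1%). Unnamed genes had the most, 759 features from 746 of 12843 genes, and a share of 16.9% (interval 14.3 to 19.7%). Sense intronic and overlapping genes had 15 features from 8 genes, and 8 of the 15 were seen in at least 10 cells (53.3%, interval 26.6 to 78.7%), but 7 of the 15 and 6 of these 8 are features of the single gene SOX2-OT, most of which overlap one another. Of the other 8 features, 2 were seen in at least 10 cells. A feature that held genes of 2 kinds was counted in both.

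**Figure D5:**
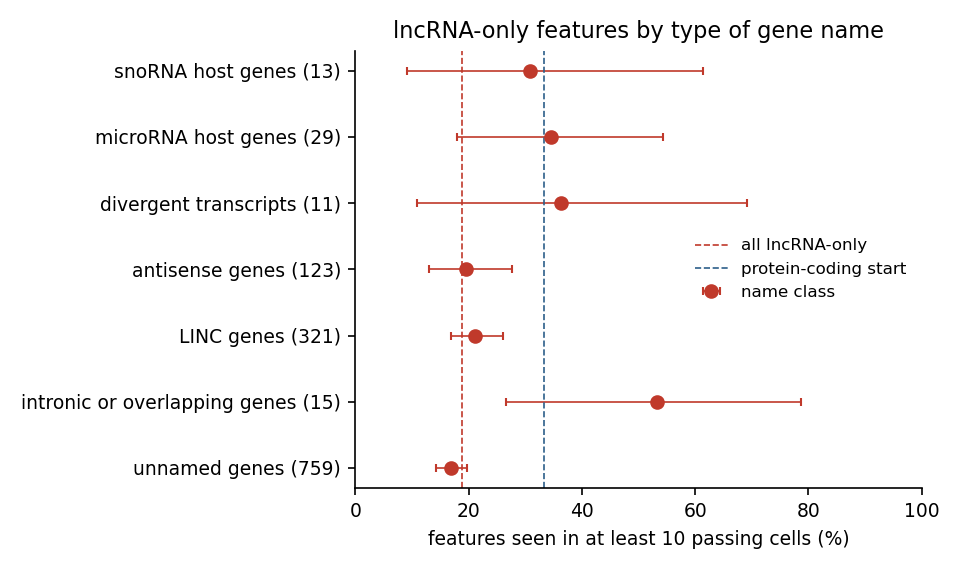
Percentage of lncRNA-only features seen in at least 10 passing cells (x axis) by the kind of gene name, with the number of features in brackets and exact 95% intervals as lines. Dashed lines mark all lncRNA-only features (18.8%, red) and features with a protein-coding start (33.2%, blue), and the intervals of snoRNA hosts, microRNA hosts and divergent transcripts span both, while that of sense intronic and overlapping genes, where SOX2-OT has 6 of the 8 features seen in at least 10 cells, reaches only the second.

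Lists of well-known lncRNAs were looked up by gene. Of all lncRNA symbols annotated on these chromosomes, 7.01% had a lncRNA-only feature and 82.7% had no feature at a start, against which the counts for each list should be read. Of 9 lncRNAs of pluripotency and early development, 8 were annotated, and SOX2-OT alone had lncRNA-only features. It had 7, none of them CpG-rich, seen in 28, 15, 13, 12, 10, 10 and 5 cells, and 6 of the 7 were thus seen in at least 10 cells, the limit that 18.8% of all lncRNA-only features reached. The feature at chr3:181609755-181610755, 101170 bp from the start of SOX2, was seen in 6 cells on plate 1 and 9 on plate 2. Of the 7 features, 6 overlapped another feature and so share read pairs, and the single feature that did not was the one seen in 28 cells. The other annotated genes of this list, 7 in number, had no feature at a start.

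Of 20 developmental regulators, 19 were annotated and 3 had lncRNA-only features, while 11 started only in other features. These were RMST, with 33 cells as above, DLX6-AS1, transcribed from the DLX5/DLX6 homeobox locus, with 15 cells (11 on plate 1 and 4 on plate 2), and LINC00461, a lncRNA expressed in brain, whose overlapping pair of features was seen in 5 and 4 cells. Of 15 ubiquitous nuclear and cytoplasmic lncRNAs, 14 were annotated and 3 had lncRNA-only features, with 4 others starting only in features with or near a protein-coding start and 7 without a feature. They were DANCR with 28 cells, EPB41L4A-AS1 with 8 (2 on plate 1 and 6 on plate 2) and MALAT1, an abundant RNA of nuclear speckles, with 7 (2 and 5). MALAT1 was therefore seen in 4.32% of cells (interval 1.75 to 8.70%), while the promoter of the ubiquitous RPLP0 gene was seen in 4 cells, and a closed promoter in the other cells cannot be read from counts this sparse.

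Of 25 imprinted lncRNAs, 18 were annotated and 2 had lncRNA-only features, MEG3 and H19, which are both known for expression from the maternal allele. MEG3 had 3 overlapping features, seen in 13, 11 and 4 cells, and H19 had 2, seen in 9 and 3. The most widely seen MEG3 feature was found in 4 cells on plate 1 and 9 on plate 2. Without the shared wells the 3 MEG3 features were left with 4, 4 and 1 of the 91 cells, and those of H19 with 3 and 1. Of 18 HOX cluster lncRNAs, HAGLR had a lncRNA-only feature (8 cells, 4 on each plate), 6 started only in other features and 11 had none. Of 9 lncRNAs linked to p53, 7 were annotated, and PURPL, known as a suppressor of p53, had a feature seen in 12 cells (4 and 8), and in 4 of the 91. Of 13 blood cell lncRNAs, 12 were annotated and 10 had no feature at a start, close to the 82.7% of all lncRNA symbols, so this count is not a result about blood lncRNAs. LINC00299 had the list's only lncRNA-only feature, seen in 2 cells, both on plate 1 and both in the wells that shared features, so these 2 cells may not be independent.

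The plates were compared for each lncRNA-only feature seen in at least 10 passing cells. Of these 248, 65 differed by at least 2-fold between the plates in the share of passing cells (26.2%, interval 20.8 to 32.1%), 27 higher on plate 1 and 38 on plate 2. The same limit was passed by 22.6% of all such features of chromosomes 1 to 22, a value within that interval, so this count is not a result about lncRNA-only features. The 3 largest differences in the share of cells were those of ANKRD33B-AS1 at chr5:10627423-10628423, with 7 cells on plate 1 (8.43%, interval 3.46 to 16.6%) and 19 on plate 2 (24.1%, interval 15.1 to 34.98%), of ENSG00000289057 at chr1:234599716-234600716, with 13 (15.7%, interval 8.61 to 25.3%) and 3 (3.797%, interval 0.790 to 10.7%), and of ENSG00000287670 at chr2:88016122-88017122, with 6 (7.23%, interval 2.70 to 15.1%) and 14 (17.7%, interval 10.0 to 27.9%). The intervals of the plates overlapped for each of the 3, which were chosen for their size. The ANKRD33B-AS1 start lies in an intron of ANKRD33B on the opposite strand, and its feature was seen in 8 of the 91 cells without the shared wells.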

How the data were processed

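The lncRNA-only features, lists and limits were chosen with earlier results of these data known. The authors deposited unnormalized counts, made with featureCounts (version 1.6.0), of the read pairs that each cell had in each feature. According to the Methods, reads were aligned to hg38, mitochondrial reads, reads of low mapping quality and duplicates were removed, peaks were called with MACS2 on all cells together, and each peak was widened around its summit by the same length on both sides. Where features overlapped, a read pair was counted in each, and 270 lncRNA-only features (20.5%) overlapped another feature. Every column was matched to 1 cell.

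From the counts, a feature was seen in a cell with at least 1 read pair. Cells with more than 300 peaks passed, where peaks seen in a single cell did not count. In passing cells, 240092 read pairs were counted on plate 1 and 238287 on plate 2, and no cell was left out for other reasons. Nuclei were sorted into wells and no doublet caller was run. Starts of all transcripts came from GENCODE 44. Sequences and base composition were read from hg38, and near-identical copies were found with minimap2. Named were the 15 lncRNA-only features seen in most passing cells, the 3 most widely seen of each list, and the 3 with the largest difference between plates, with ties in genome order. For short lists all features are given. Blood and ubiquitous genes served only to check the cell line. No test was made, since the plates are parts of 1 sample. Alternatives changed the starts, flank, cells, depth, limits and overlap. Simulated counts for the 1319 lncRNA-only features were Poisson draws, independent between cells, with 200 features raised 4-fold on plate 2. Of the raised and widely seen ones, 88.3% passed the 2-fold limit, as did 21.1% of 280 unchanged ones in either direction. The sharing of features between wells was not simulated, so 21.1% need not hold for the real counts. Calculations used Python 3.11.15 with pandas 2.3.3 and NumPy 2.4.6, exact intervals SciPy 1.17.1, and plots matplotlib 3.10.9.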

Additional observations from a re-analysis of the deposited data

How the results depend on the processing

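The lncRNA-only share seen in at least 10 cells was below the protein-coding share in each of 14 alternatives in which both were computed, and the CpG-rich share in each of 10. Sizes depended on cells and depth. Values follow as lncRNA-only, then protein-coding, and where given CpG-rich lncRNA-only, then CpG-rich protein-coding. They were 55.3%, 73.8%, 74.6% and 80.9% at a limit of 5 cells, and 2.43%, 7.27%, 4.08% and 8.83% at 20. Without cells 37 to 48 and 73 to 96 they were 3.03%, 9.17%, 4.99% and 10.9%, with a median of 2 cells and 2.22% of read pairs, and at the scaled limit of 6 cells 15.1%, 28.4%, 24.7% and 32.8%. With each cell thinned to 600 read pairs and shallower cells dropped (10 on plate 1, 6 on plate 2), they were 0.303%, 0.845%, 0.454% and 1.05%, with a median of 1 cell and 2.05% of read pairs. Without overlapping features they were 14.9% and 30.3%, with 36.3% for CpG-rich protein-coding features, a median of 4 cells and 2.00% of read pairs. With cells of more than 1000 peaks they were 16.7% and 30.2%, with 34.9% for CpG-rich protein-coding features. Plate 1 alone, with the limit halved, gave 21.8% and 37.0%, and plate 2 gave 23.5% and 37.7%. With the 5' end of each gene as the only start they were 22.7% and 38.1%, with 47.1% of lncRNA-only features CpG-rich and a median distance of 0.158 kb. With canonical transcripts the protein-coding share was 38.5%, the CpG-rich part 40.7% and the distance 0.169 kb. With protein-coding starts only of coding transcripts the protein-coding share was 35.5%. With the flank reduced to the feature itself 38.7% of members were CpG-rich, and with the stricter CpG limits 25.5%. The 2-fold difference between plates was found in 3 of 32 lncRNA-only features seen in at least 20 cells (9.38%), against 8.87% of all such features. Without the shared wells it was found in 8 of 40 (20.0%), against 22.2%. These lncRNA-only counts are small and their shares imprecise. The other 37 of 85 alternative values stayed within the interval of the main value, or within 1.5 times it for the number of features. No paired analysis was possible because the result comes from no test, and a cell number does not pair cells of the 2 plates. The cause of these changes was not tested, beyond the smaller number of cells or read pairs that several alternatives leave by construction. Depth limits what a count can show, because a cell with no read pair in a promoter is not shown to have it closed.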
